A study of Mus musculus with 3 samples.

Results

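Transthyretin (Ttr), retinol binding protein 4 (Rbp4), fetuin-A (Ahsg), the alpha-1-microglobulin and bikunin precursor (Ambp) and inter-alpha-trypsin inhibitor heavy chain 3 (Itih3) are proteins that hepatocytes secrete into plasma. They were taken as all entries carrying the Ensembl identifiers of these genes, and all 5 were found among the 13179 genes with a value. RNA sequencing was done on 3 liver libraries from healthy, wild-type C57BL/6 mice labelled male, and these form the only group used here. The stated design sets liver cancer against normal liver, and cancer tissue was not analysed here. The labels do not say whether the libraries came from separate animals, so the spread between them may be technical in part. With 1 group no contrast could be tested, and all values below are descriptions.

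Transthyretin carries thyroxine and also binds retinol binding protein 4, which transports retinol from the liver; the complex is too large to be lost by kidney filtration. Fetuin-A belongs to the cystatin superfamily and keeps calcium phosphate in solution in plasma. Ambp encodes a single precursor that is cut into alpha-1-microglobulin, a haem and radical binding lipocalin, and bikunin, a Kunitz protease inhibitor. Bikunin is joined through a chondroitin sulfate chain to heavy chains such as that encoded by Itih3, and these complexes pass their heavy chains to hyaluronan.

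The value used is the FPKM, a fragment count divided by transcript length and sequencing depth, so levels of different genes can be set side by side. Each table breaks assembled transcripts into events, such as a first exon, a last exon, an exon skipped or an intron kept, and gives the FPKM summed over the transcripts with that event. Tables of 71716 to 74243 events hold no read counts, so depth is unknown and no counting interval could be given. An event that is not listed is not evidence of silence, and gene-level values, taken as the largest of the first exon sum, the last exon sum and the largest internal event, are lower bounds. A gene without a listed event in a library was given 0 there, and this 0 entered its mean. Positions are on GRCm38.

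The label "male" did not match the sex-linked genes in any library. Xist was at 39.6, 34.2 and 38.2 FPKM in replicates 1, 2 and 3, and 0 events lay inside Uty, Kdm5d, Ddx3y and Eif2s3y, the 4 genes checked on the Y chromosome. The tissue label was checked on marker genes. All 7 hepatocyte markers were listed, with summed levels of 29950, 35172 and 33124 FPKM, mostly Alb (25367, 30592 and 27018 FPKM). Of 5 markers of choroid plexus, which also makes transthyretin, 0 were listed.

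Sequences are shown first. Rbp4 had 2 starts of very unequal level, and the stretches of 120 bases before both are given, with those before the RefSeq starts of Ahsg and Ambp. These RefSeq starts of Ahsg and Ambp were not themselves listed. The listed Ahsg start lies 27 bases downstream of its RefSeq start, and the listed Ambp start 627 bases upstream of its own. All are read 5′ to 3′ on the strand of the gene from the RefSeq promoter table (GRCm38.p6), and capitals mark matches to the motifs searched.
Rbp4, strong start, chr19:38124812-38124931, minus strand: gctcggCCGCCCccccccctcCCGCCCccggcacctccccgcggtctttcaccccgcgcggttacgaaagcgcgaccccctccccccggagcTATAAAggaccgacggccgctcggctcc
Rbp4, weak start, chr19:38125322-38125441, minus strand: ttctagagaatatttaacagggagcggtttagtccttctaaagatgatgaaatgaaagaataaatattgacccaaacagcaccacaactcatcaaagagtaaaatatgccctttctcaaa
Ahsg, chr16:22891895-22892014, plus strand: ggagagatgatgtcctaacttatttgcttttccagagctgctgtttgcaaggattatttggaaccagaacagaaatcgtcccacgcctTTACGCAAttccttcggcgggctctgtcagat
Ambp, chr4:63154173-63154292, minus strand: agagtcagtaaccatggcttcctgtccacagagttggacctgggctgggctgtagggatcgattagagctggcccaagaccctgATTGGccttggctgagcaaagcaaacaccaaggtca

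In Itih3, assembled transcripts differed around an annotated exon of 3 bases. The sequence joins the last 30 bases of exon 14 (chr14:30914653-30914682), exon 15 in capitals (chr14:30914049-30914051) and the 33 bases of exon 16 (chr14:30913161-30913193), on the minus strand, read from the GENCODE M21 transcript Itih3-201.
Itih3, exons 14 to 16: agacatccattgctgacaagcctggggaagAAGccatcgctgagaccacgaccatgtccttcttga

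Ahsg, Ttr, Rbp4 and Ambp were among the most abundant transcripts of the libraries and Itih3 was lower. Ahsg (ENSMUSG00000022868, chromosome 16, 22891277 to 22899449, plus strand) had 3310, 4855 and 3951 FPKM in replicates 1, 2 and 3, a mean of 4039 ± 776 (SD, n = 3) and rank 6 of 13179 genes. Ttr (ENSMUSG00000061808, chromosome 18, 20665280 to 20674321, plus strand) had 3513, 2808 and 3378 FPKM, a mean of 3233 ± 374 and rank 8. The ranges of these 2 genes overlapped: Ttr was the higher one in replicate 1, and Ahsg in replicates 2 and 3.

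Rbp4 (ENSMUSG00000024990, chromosome 19, 38116629 to 38125281, minus strand) had 2233, 1937 and 2020 FPKM, a mean of 2063 ± 153 and rank 18. Ambp (ENSMUSG00000028356, chromosome 4, 63143275 to 63154799, minus strand) had 1857, 1547 and 1719 FPKM, a mean of 1708 ± 156 and rank 22. All values of Rbp4 lay above all of Ambp, with the highest Ambp value close to the lowest of Rbp4. Itih3 (ENSMUSG00000006522, chromosome 14, 30908572 to 30923760, minus strand) had 234, 306 and 288 FPKM, a mean of 276 ± 37.4 and rank 144, and its values did not overlap those of any other carrier. The 5 genes together made up 3.47% ± 0.11 of the summed gene FPKM.

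**Figure D1:**
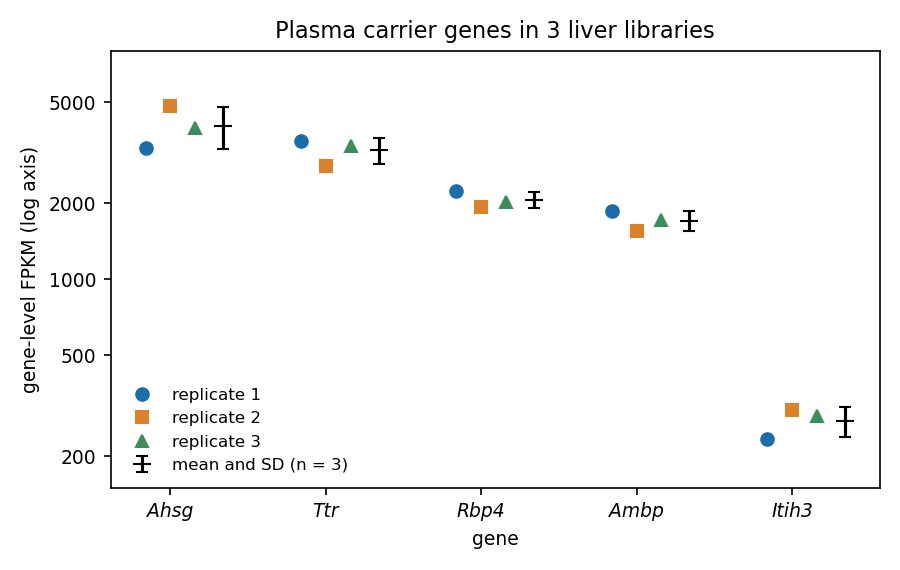
Gene-level FPKM of the 5 carrier genes (log axis) in replicates 1, 2 and 3, with the mean and SD over n = 3 libraries in black. Ahsg and Itih3 had their highest value in replicate 2, and Ttr, Rbp4 and Ambp had their lowest value there.

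On the log2(FPKM + 1) scale, the difference between neighbours in the order of means was compared with its spread over the libraries. Ahsg minus Ttr was 0.31 ± 0.44, a difference smaller than its SD. Ttr exceeded Rbp4 by 0.64 ± 0.10, with 0.65, 0.54 and 0.74 in replicates 1, 2 and 3. Rbp4 exceeded Ambp by 0.27 ± 0.046, with the same sign in 3 of 3 libraries. Ambp exceeded Itih3 by 2.63 ± 0.33, also in 3 of 3 libraries. The differences with Ambp depend on the end used, which these SDs do not cover. With first exons alone, Rbp4 minus Ambp was 2.44 and Ambp minus Itih3 was 0.47. With last exons alone, Ambp minus Itih3 was 3.78. With 3 libraries an exact two-sided sign-flip permutation test cannot give a p below 0.25, so none of these differences was tested. With first exons alone, Ttr minus Rbp4 was 0.19, -1.44 and 0.59 in replicates 1, 2 and 3, so its mean of -0.22 came from replicate 2, and without that library it was 0.39.

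The gene-level values of the carriers did not move together between libraries. Ttr, Rbp4 and Ambp were each highest in replicate 1 and lowest in replicate 2, with the highest value 1.25, 1.15 and 1.20 times the lowest. Ahsg and Itih3 were lowest in replicate 1 and highest in replicate 2, with ratios of 1.47 and 1.31. For Ttr, Ambp and Itih3 this order depends on the end that gave the value. By first exons alone, Ttr had 2548, 712 and 3037 FPKM in replicates 1, 2 and 3, and Ambp 406, 376 and 358. By last exons alone, Itih3 had 75.1, 85.4 and 288 FPKM. The coefficients of variation of the gene-level values were 7.42% for Rbp4, 9.11% for Ambp, 11.6% for Ttr, 13.5% for Itih3 and 19.2% for Ahsg. Among 475 genes averaging 100 FPKM or more, the median coefficient was 15.6% and the quartiles 8.71% and 23.8%. Rbp4 thus lay under the lower quartile of abundant genes, and the other 4 carriers between the quartiles. Marker sums also differed between libraries: the 7 Kupffer cell markers summed to 85.1, 138 and 125 FPKM, and the 6 sinusoidal endothelial markers to 54.9, 66.4 and 59.1. The 6 listed stellate cell markers summed to 118, 149 and 143, and the 5 cholangiocyte markers, mostly Spp1, to 79.2, 33.9 and 37.7. The part of these cell types in the carriers' values was not tested. In bulk tissue fewer hepatocytes and less RNA per hepatocyte cannot be told apart.

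Transcript starts were next compared with transcript ends, since the summed FPKM of first exons and of last exons should be equal where every transcript has both listed. They were equal for Ahsg and Rbp4 in each library. Ahsg had 1 listed first exon (chromosome 16, 22892042 to 22892327), which shares the splice site of the annotated Ahsg-201 first exon, and 1 last exon (22898797 to 22899438). The annotated first exons farther upstream, those of Ahsg-202 and Ahsg-203, were not listed. Replicate 3 also listed 2 last exons under the Ahsg identifier on the minus strand, at 0.45 and 0.73 FPKM, which lie before the gene and were not counted for it.

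Rbp4 used the downstream of its 2 starts for nearly all of its FPKM. The first exon at 38124758 to 38124811, that of the annotated transcript Rbp4-202 by its splice site, had 2129, 1843 and 1918 FPKM in replicates 1, 2 and 3. The first exon at 38124955 to 38125321, which shares its splice site with Rbp4-201, had 104, 93.5 and 103 FPKM. The strong start thus held 95.3, 95.2 and 94.9% of the first exon FPKM, a mean of 95.1% ± 0.21. The weak start held 4.67, 4.83 and 5.09%. In the annotation both transcripts go on to the same second exon. Both starts coincide to the base with starts in the RefSeq table, at 38124811 and 38125321.

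The sequences before these starts also differed in composition. The RefSeq window of the strong start, from 250 bases before to 50 after it, had 72.0% G and C and 40 CG dinucleotides, against 40.7% and 5 for the weak start and medians of 52.7% and 7 over 32817 such windows. Motifs were searched on both strands: TATAAA for the TATA box, TGTTTAC for forkhead factors, GTTAAT for HNF1, CAAAGTCCA for HNF4, TTGCNNAA for C/EBP, CCAAT for the CCAAT box and GGGCGG for Sp1. No match overlapped another. The strong start had TATAAA at positions -28 to -23, and on the other strand GGGCGG at -114 to -109 and at -99 to -94 and TTGCNNAA at -128 to -121, the last of them outside the printed stretch. The weak start had no match in the printed stretch, and farther upstream, on the other strand, CCAAT at -162 to -158 and TGTTTAC at -241 to -235. TATAAA was found in 13.6% of all windows, GGGCGG in 35.6%, TTGCNNAA in 10.8%, CCAAT in 37.4% and TGTTTAC in 3.65%. A match is a description of letters and not a site of binding.

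Ttr had the same listed start in each library, at widely differing FPKM. Its only listed first exon (chromosome 18, 20664071 to 20664305) begins 1209 bases upstream of the GENCODE start and ends 974 bases before the annotated first exon. The splice site at its 3′ end is in no GENCODE transcript of Ttr, while the RefSeq gene, beginning at 20664209, reaches into it. This exon had 2548, 712 and 3037 FPKM in replicates 1, 2 and 3, against 3513, 2808 and 3378 FPKM for the shared last exon (20673631 to 20674324). It therefore stood for 72.5, 25.4 and 89.9% of the last exon FPKM, with replicate 2 far below the others. The remaining 964, 2096 and 341 FPKM had no listed first exon, and the annotated first exon at 20665280 to 20665507 was not listed in any library. Without replicate 2 the gene-level mean of Ttr was 3445 FPKM.

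Ambp had the same kind of gap, but at a steady size. Its listed first exon (chromosome 4, 63154659 to 63154799) is that of the short annotated transcript Ambp-202 and lies 626 bases upstream of the Ambp-201 start. It had 406, 376 and 358 FPKM, or 21.9, 24.3 and 20.8% of the last exon FPKM (22.3% ± 1.76). The other 1451, 1171 and 1360 FPKM had no listed first exon. The first exon of Ambp-201, a transcript of 10 exons, overlaps the second exon of Ambp-202 in the annotation and was not listed. The RefSeq window for Ambp is that of the Ambp-201 start, with CCAAT on the other strand at -36 to -32. Replicate 2 listed a plus-strand transcript under the Ambp identifier, with exons at 63151528 to 63152688 and 63153984 to 63154166, at 6.66 FPKM; replicates 1 and 3 did not, and it was not counted for Ambp. The sources do not state whether the libraries kept strand.

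Across all 6842 genes with both kinds of end in every library and a mean of at least 1 FPKM, first and last exon sums agreed within 1% for 42.2%, and the first exon sum was under 50% of the last exon sum for 3.74%. Ahsg and Rbp4 thus fall with the first share, and Ambp with the second. The first exon sum was lower by more than 1% for 25.3% of these genes, those under 50% included, and higher by more than 1% for 32.5%. Summed over the libraries, Ttr falls with the lower ones, though not under 50%, and Itih3 with the higher ones.

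**Figure D2:**
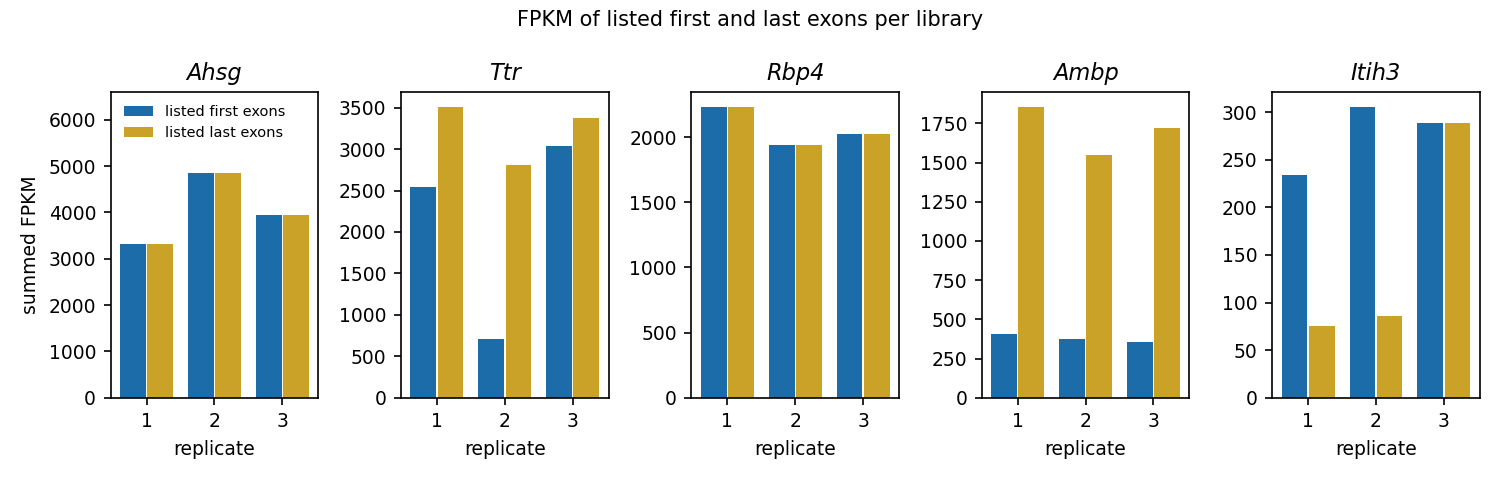
Summed FPKM of the listed first exons and last exons of each carrier gene in replicates 1, 2 and 3, each panel with its own axis from 0. Both ends were equal for Ahsg and Rbp4, first exons were lower for Ttr and Ambp, and last exons were lower for Itih3 in replicates 1 and 2 (75.1 and 85.4 FPKM).

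Itih3 was the only one of the 5 with listed internal events, with 17, 19 and 13 events in all in replicates 1, 2 and 3. Its main first exon (30923457 to 30923760, exon 1 of the annotated Itih3-201) had 234, 305 and 288 FPKM. Its last exon (30908544 to 30908812) had 75.1, 85.4 and 288 FPKM, equal to the first exon in replicate 3 but 32.1 and 28.0% of it in replicates 1 and 2. A start inside the gene (30914049 to 30914129, annotated for Itih3-202) was listed at 0.34 and 0.36 FPKM in replicates 1 and 2 and not in replicate 3. Exon 17, a coding exon of 36 bases, was included at the FPKM of the main start in each library. It was left out at the FPKM of the inner start in replicates 1 and 2, and neither was listed in replicate 3.

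The largest difference in form lay around exon 15, the exon of 3 bases shown above, which 3 annotated Itih3 transcripts contain. No library listed an event with this exon spliced on both sides. In the first of the forms found, exon 14 was joined directly to exon 16, as in 1 annotated transcript, at 132.8, 85.4 and 115.7 FPKM, or 56.8, 28.0 and 40.2% of the first exon. In another, the junction was shifted so that exon 14 gained 1 base and exon 16 gained 2, which adds 3 bases, as many as exon 15 has. This junction is in no annotated Itih3 transcript; it was at 73.9 and 172 FPKM in replicates 2 and 3 (24.2 and 59.8%) and not listed in replicate 1. In the third form the 601-base intron between exons 14 and 15 (30914052 to 30914652) was kept together with exon 15, at 100.9 and 146 FPKM in replicates 1 and 2 (43.2 and 47.8%) and not listed in replicate 3. These forms added up to the first exon FPKM in each library, which follows where each assembled transcript of the main start takes 1 of them. The listed makeup at this place differed between the 3 libraries, but a form that is not listed is not evidence of its absence.

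The intron of 487 bases between exons 9 and 10 (30917788 to 30918274) was kept in a smaller part of the transcripts, as it is in the annotated transcript Itih3-204. The form with the intron had 37.95, 73.9 and 26.7 FPKM, and that without it 196, 231 and 262 FPKM. The share with the intron was 16.2, 24.2 and 9.25%, a mean of 16.6% ± 7.49. In replicate 2 the FPKM of the form with the intron was identical to that of the shifted junction. There the last exon of Itih3 also had the same FPKM as the form joining exon 14 to exon 16 (85.4). An exon of 116 bases (30923065 to 30923180) that overlaps 0 annotated Itih3 exons was included at 12.1 FPKM, 5.19% of the first exon, in replicate 1 only.

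**Figure D3:**
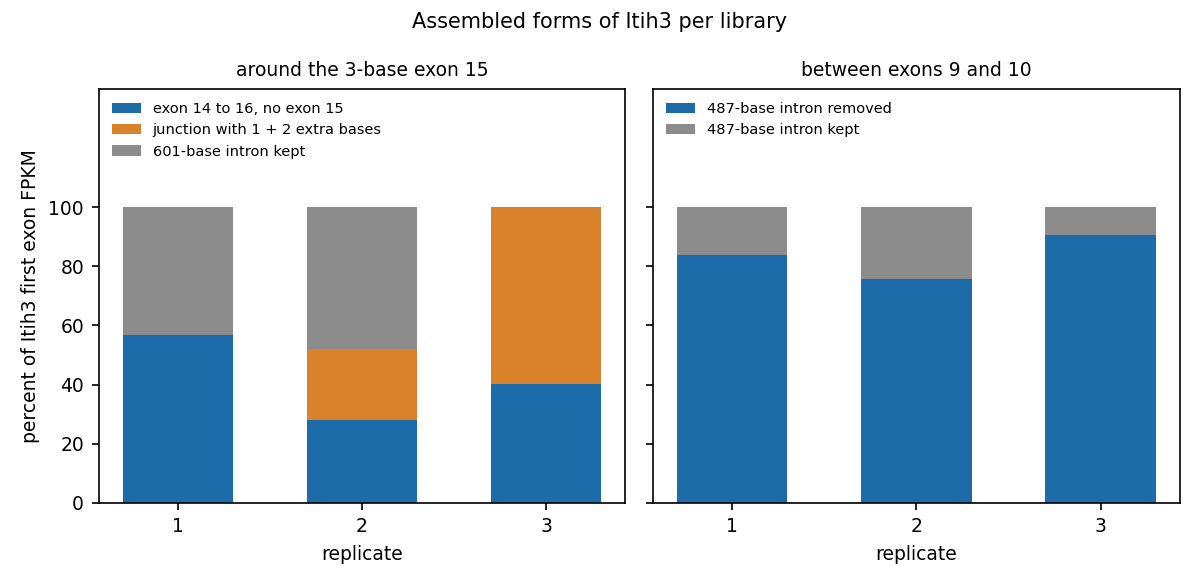
Assembled forms of Itih3 as percent of the FPKM of its main first exon, in replicates 1, 2 and 3, around the 3-base exon 15 (left) and the 487-base intron between exons 9 and 10 (right). The shifted junction was not listed in replicate 1, nor the kept 601-base intron in replicate 3, while the 487-base intron was kept in 9.25 to 24.2%.

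Partners of the carriers were measured in 10 lists of related genes. In these lists 138 of 139 symbols matched an annotated gene, 113 had a value and 106 had a mean of at least 1 FPKM. Over all genes with a value, 72.9% reached that mean and the median of the mean log2(FPKM + 1) was 2.07.

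Of 32 genes of retinoid handling 26 had a value, 24 of them at 1 FPKM or above, and their median log2(FPKM + 1) was 3.12. All but Aldh1a1 and Ces1d had means below Itih3, the lowest carrier. Aldh1a1, a retinal dehydrogenase, was highest at 463 ± 101 FPKM, and the retinyl ester hydrolase Ces1d was at 290 ± 17.3 FPKM. Stra6l, a liver receptor for Rbp4, was at 28.9 ± 3.63 FPKM, 6.11 ± 0.28 log2 units below Rbp4, while Stra6, the receptor of other tissues, and Lrat, the retinol esterifying enzyme of stellate cells, were not listed. The listed gene with the lowest mean was Crabp2, at 0.36 FPKM in replicate 1 and not listed in replicates 2 and 3.

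Thyroid hormone handling had 17 of 22 genes with a value, of which 16 averaged 1 FPKM or above, and a median of 4.10 on the same scale. Alb, which also binds thyroxine, was highest at 27659 ± 2671 FPKM and exceeded Ttr by 3.10 ± 0.31 log2 units. Serpina7, the thyroxine binding globulin, had 43.0, 22.0 and 59.7 FPKM, and Ttr exceeded it by 6.35 ± 0.57. The deiodinase Dio1 had 43.8, 74.3 and 29.98 FPKM, with replicate 2 highest, and the hormone receptor Thrb was at 3.64 ± 1.09 FPKM. The uptake carrier Slco1a1 had the lowest mean, at 0.94 and 0.58 FPKM in replicates 1 and 2 and not listed in replicate 3.

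Of the other heavy chain genes, Itih2 was near Itih3 in level, Itih4 higher, Itih1 lower and Itih5 far lower. Of 10 genes in the inter-alpha-inhibitor list 7 had a value, with a median of 5.82. Itih4 was highest at 541 ± 112 FPKM, Itih2 was at 270 ± 64.0, Itih1 at 142 ± 60.5 and Itih5 at 1.56 ± 0.31 FPKM. Itih4 exceeded Itih3 by 0.96 ± 0.17 log2 units, in 3 of 3 libraries. Itih3 did not differ from Itih2 beyond the spread, with a difference of 0.049 ± 0.17 log2 units, and exceeded Itih1 by 1.05 ± 0.54. All of Itih1, Itih2, Itih3 and Itih4 had their lowest value in replicate 1, where Ambp had its highest. Ambp was 3.56, 1.91 and 2.34 times the summed FPKM of Itih1, Itih2 and Itih3 in replicates 1, 2 and 3. This ratio depends on the end used, since the Ambp value came from its last exon and that of Itih3 from its first exons. The listed first exon of Ambp, at 406, 376 and 358 FPKM, lay below the heavy chain sums of 521, 811 and 733 FPKM. Spint1, another Kunitz inhibitor, was lowest at 1.32, 0.15 and 0.04 FPKM, and Spink1, Has2 and Tnfaip6, the enzyme that moves heavy chains to hyaluronan, were not listed.

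In the cystatin superfamily list 7 of 9 genes had a value, with a median of 6.96. Kng1, the precursor of bradykinin, was highest at 1112 ± 81.6 FPKM. Cst7 had the lowest mean, at 0.41 FPKM in replicate 2 and not listed in the other libraries. Fetub, the nearest relative of Ahsg, had 254, 226 and 221 FPKM, and Ahsg was 13.0, 21.5 and 17.9 times as high. Among the lipocalins and relatives 11 of 13 had a value, each averaging above 1 FPKM, and the median was 6.23. There Fabp1 was highest at 6484 ± 1159 FPKM and the prostaglandin synthase Ptgds lowest at 2.25 ± 0.695 FPKM. Apom, the lipocalin of lipoproteins, lay 4.06 ± 0.49 log2 units below Rbp4.

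Other lists gave the surroundings of these genes. Of 11 other plasma carriers 10 had a value, with a median of 10.02, from Igfals at 38.04 ± 8.43 FPKM to albumin. All 9 genes of fetuin and calcium handling had a value, with a median of 3.41, from Mgp at 1.60 ± 0.33 FPKM to the asialoglycoprotein receptor Asgr1 at 325 ± 25.7 FPKM. Of 9 genes of haem and microglobulin clearance 8 had a value, with a median of 4.63. Hemopexin (Hpx) was highest there at 2185 ± 463 FPKM. Lrp2, an uptake receptor of the kidney, had the lowest mean, at 0.43 FPKM in replicate 2 and not listed in the other libraries. Cubn, another, was not listed in any library. Among 16 regulators known to act on liver genes 11 had a value, with a median of 3.04. Hnf4a was highest of these at 81.0 ± 19.5 FPKM. Foxa1 had the lowest mean, at 1.39 and 3.26 FPKM in replicates 1 and 2 and not listed in replicate 3. Foxa3, Cebpa, Cebpb, Cebpd and Nr2f1 were not listed in any library, which is not evidence of silence. Of 10 acute phase genes 9 had a value, with a median of 7.36, from the lipocalin Lcn2 at 8.33 ± 1.05 FPKM to Hamp at 2295 ± 833 FPKM.

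**Figure D4:**
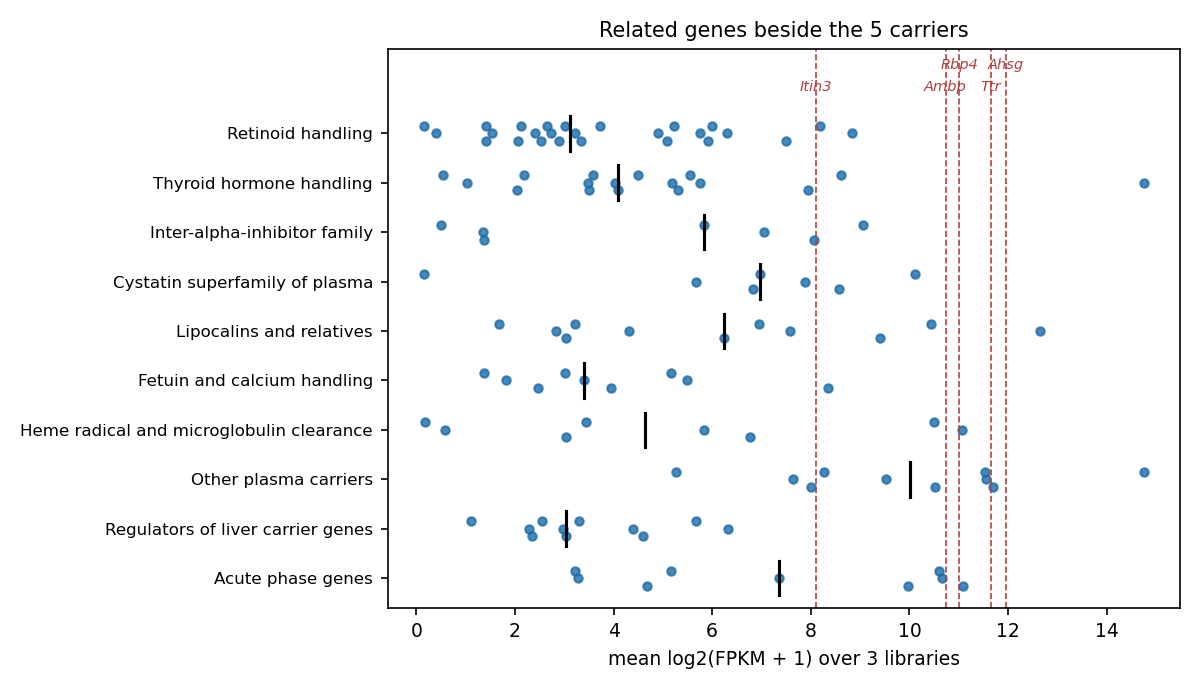
Mean log2(FPKM + 1) over 3 libraries of the genes with a value in each of 10 lists (points), with the list median (black bar) and the levels of the 5 carriers (dashed lines). Albumin, which is in 2 of the lists, and Fabp1 lie to the right of all 5 carriers.

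Genes with the most similar levels over the 3 libraries were found by Euclidean distance on the log2(FPKM + 1) scale among 10723 genes. Those nearest to Ttr were transferrin (Trf, distance 0.28) and the vitamin D binding protein Gc (0.29). Rbp4 lay nearest to Ftl1 (0.22) and B2m (0.23), and Ambp lay near B2m (0.29). Itih3, at rank 144 of 13179 genes, had the closest neighbours, Cyp2f2 (0.13) and Glud1 (0.14). Ahsg, at rank 6, had the most distant ones, Apoc1 (0.69) and Trf (0.72), neither of which had its highest value in replicate 2. These distances are on absolute level, so they also depend on how many genes lie near the level of each carrier.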

How the data were processed

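RNA was measured in 3 libraries of normal liver, and each deposited table gives FPKM per transcript event, a unit named in the file headers. For HISAT2 2.0.1, HTSeq 0.6.1, cutadapt 1.9.1, DESeq2 and mm9, all listed in the submitters' processing notes, no role is stated, nor is the program behind the events. Positions were read as GRCm38: 82.0 to 82.7% of first exons matched GENCODE M21 exactly, and 0 to 0.0056% did when moved by 1000 bases. Repeated identical entries (1440 to 1519 per library) were dropped. A gene's value was the largest of its summed first exons, summed last exons and largest internal event. First and last exons were given to genes by position, then splice site, then identifier on the gene's strand (2.77 to 3.29% of ends). The strand condition was added after opposite-strand entries had been seen. Values were summarised in Python 3.11.15 with pandas 2.3.3. The gene assignment was tested on simulated data with exactly annotated ends, which did not exercise assignment by splice site or by identifier. Log2 values used a pseudocount of 1 FPKM. The carriers and all lists were chosen with earlier results of these data known. Named genes are the 5 carriers, the highest and lowest gene of each list, stated partners of the carriers, and the 2 nearest genes of each carrier, a few of which are not reported here; other named genes, such as Ces1d, Apom, Stra6, Itih5 and the chromosomal neighbours, were picked after their values had been seen. The labels' numbers pair no samples, and the alternatives are in the closing section.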

Additional observations from a re-analysis of the deposited data

How the results depend on the processing

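The values depend most on which end of a transcript is used. With first exons alone, Ttr was at 2099 FPKM and Ambp at 380 FPKM, and the log2 differences became 1.17 for Ahsg minus Ttr, -0.22 for Ttr minus Rbp4 (a change of sign), 2.44 for Rbp4 minus Ambp and 0.47 for Ambp minus Itih3. The first exon of Ttr was low in replicate 2: without that library, a setting chosen after seeing the data, Ttr from first exons was at 2793 FPKM, Ahsg minus Ttr was 0.38 and Ttr minus Rbp4 was 0.39, with no change of sign. With last exons alone, Itih3 was at 149.6 FPKM and Ambp minus Itih3 was 3.78. Replicate 3 carried that level: without it, also chosen after seeing the data, the values were 80.3 FPKM and 4.39. Rescaled to a total of 1000000 per library, which changes the unit, the levels were 12376 for Ahsg, 9898 for Ttr, 6315 for Rbp4, 5226 for Ambp and 846 for Itih3. With starts of at least 1 FPKM only, the main Itih3 start held 100% of first exon FPKM. Leaving out each replicate in turn gave 3631 to 4403 FPKM for Ahsg, 3093 to 3445 for Ttr, 1979 to 2127 for Rbp4, 1633 to 1788 for Ambp and 261 to 297 for Itih3. The differences ranged from 0.070 to 0.51 for Ahsg minus Ttr, 0.59 to 0.70 for Ttr minus Rbp4, 0.25 to 0.30 for Rbp4 minus Ambp and 2.45 to 2.78 for Ambp minus Itih3. The share of the strongest start ranged from 95.04 to 95.3% for Rbp4 and from 99.87 to 99.94% for Itih3, and the count of list genes at 1 FPKM from 105 to 106. Against 106 in all libraries, that count was 98 with first exons alone, 92 with last exons alone, 104 with identifiers alone and 110 after rescaling. Of the list medians under other settings, 63 moved by less than the SD between libraries and 27 by more. Rescaling moved each of the 10 medians upward. Otherwise those that moved by more than 1.5 times in FPKM + 1 were, with first exons alone, cystatins (6.96 to 5.67), lipocalins (6.23 to 5.27), fetuin and calcium handling (3.41 to 2.47) and haem clearance (4.63 to 5.64). With last exons alone they were lipocalins (5.27) and thyroid hormone handling (4.10 to 3.48), and with genes of at least 1 FPKM only haem clearance (6.30) and the inter-alpha-inhibitor list (5.82 to 6.44). Depth is unknown, so no limit from counting could be given. No paired analysis was possible because the libraries form 1 group.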

Other observations

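Neighbouring genes on the chromosome differed widely between the carriers. Within 100 kb of Ahsg on chromosome 16, 5 of 6 protein-coding neighbours had a value, among them its relatives Fetub at 234 ± 17.7 FPKM, Hrg, the histidine-rich glycoprotein, at 378 ± 35.2 FPKM and Kng2 at 130 ± 44.4 FPKM, whereas the chaperone gene Dnajb11, 11643 bases away, was at 24.1 ± 7.04 FPKM. Itih3 on chromosome 14 lies between Itih4, 6219 bases away, and Itih1, 5420 bases away, and the remaining 8 of its 10 neighbours were at means of 2.04 to 36.4 FPKM. Beside Ttr, Rbp4 and Ambp, 1 of 2, 4 of 5 and 3 of 3 neighbours had a value, all under 20 FPKM. The highest were Dsg2 at 18.1 ± 0.96 FPKM beside Ttr, Fra10ac1 at 7.53 ± 1.31 FPKM beside Rbp4 and Col27a1 at 2.37 ± 1.14 FPKM beside Ambp. The gene nearest to Ttr, B4galt6, 10278 bases away, was not listed. The gene nearest to Rbp4, Ffar4, 2366 bases away, had 0.086 and 0.50 FPKM in replicates 1 and 2 and was not listed in replicate 3.

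The RefSeq window for Itih3 is set at a start at 30923587, and the listed first exon begins 173 bases upstream of it. In that window TATAAA lies at positions 4 to 9 after the RefSeq start, and GGGCGG lies on the other strand at -158 to -153. The listed Ahsg start lies 27 bases downstream of its RefSeq start. CCAAT on the other strand spans positions 23 to 27, counted with the RefSeq start as the first position, and so ends at the base before the listed start. TTGCNNAA on the other strand spans -32 to -25.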
